A study of Mus musculus with 6 samples.

Results

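LSK cells are bone marrow cells that lack lineage markers and carry Sca-1 and c-Kit, and they hold most blood-forming stem cells and early progenitors. The 6 genes described here, Tep1, Mvp, Parp4, Tert, Terc and Vaultrc5, encode components of telomerase and of vault particles, and they were taken by symbol from a table of 55573 genes. The symbol Terc stands on 2 rows, so the 6 genes fill 7 rows, of which 6 passed the filter on low counts, among 20646 genes that did. Tep1 was chosen because it was higher in the mutant with little spread, and the other 5 for their role. Libraries came from 3 Etv6 R355X/+ samples and 3 wild-type (Etv6+/+) samples. All carried the strain label C57BL/6J and an age of 3 months, with no treatment named. For the mutant the genotype field reads Etv6+/-, while the design text names the heterozygous R355X allele. Both genotypes were enriched for c-Kit-positive cells on magnetic beads and then sorted. Whether the replicates are different animals is not stated in the labels, and the p-values below describe only the scatter of these 6 libraries, part or all of which may be technical.

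Etv6, a transcriptional repressor of the ETS family, measured 344 ± 40.5 CPM in the mutant and 424 ± 27.2 CPM in wild type (SD, n = 3 each). CPM are counts per 1000000 of the library size after TMM scaling, a correction for composition. Library totals, in units of 1000000 expected counts, ran from 45.2 to 92.2 in the mutant and from 47.9 to 60.8 in wild type. The sorting markers Kit and Ly6a, which encode c-Kit and Sca-1, averaged 378 and 78.2 CPM in the mutant, and 419 and 85.8 CPM in wild type. The progenitor markers Cd34 and Flt3 were also detected, at 293 and 267 CPM in the mutant, and 309 and 272 CPM in wild type.

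Telomerase is the enzyme that adds TTAGGG repeats to chromosome ends, and it is active in hematopoietic stem and progenitor cells. Its reverse transcriptase, Tert, copies a short template held in its RNA subunit, Terc. Vaults are large hollow ribonucleoprotein particles of the cytoplasm, with a shell of major vault protein (Mvp) that holds the ADP-ribosyltransferase Parp4, Tep1 and small vault RNAs. Tep1 is a large RNA-binding protein with WD40 repeats that was found in both complexes. Mice without Tep1 are known to keep telomerase activity, and their vaults lack stably bound vault RNA.

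Tep1 was higher in the mutant in every library. Tep1 measured 54.8, 54.5 and 55.5 CPM in mutant replicates 1, 2 and 3, against 36.4, 34.2 and 33.3 CPM in wild-type replicates 1, 2 and 3. The lowest mutant library lay above the highest wild-type library, and the 3 mutant values were nearly equal. Tep1 averaged 54.9 ± 0.515 CPM in the mutant and 34.7 ± 1.60 CPM in wild type (SD, n = 3 each), a 1.58-fold difference and a log2 fold change of 0.66 (SE 0.066). These are the values that chose the gene, so they are given as a description with no test. The SD in the mutant lay below that of counting error by itself, 0.975 CPM, so the closeness of the 3 mutant values is not read. Tep1 rested on 2490 to 4795 expected counts per mutant library and 1625 to 2235 per wild-type library. The log2 fold change lay between 0.64 and 0.70 whichever single library was left out. In sorted bulk samples, a difference in the share of cells that express a gene and a difference in RNA per cell cannot be told apart.

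Of the 6 tested rows, Tep1 was the 1 that passed edgeR's quasi-likelihood test at an adjusted p under 0.05, where 0.266% of all tested genes passed, 0.189% higher and 0.0775% lower. Because Tep1 was chosen on this contrast, nothing is read from that count. Genotypes did not overlap for Tep1 and overlapped for the other 5 rows, while 16.3% of all tested genes did not overlap, 8.45% with the mutant above.

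**Figure D1:**
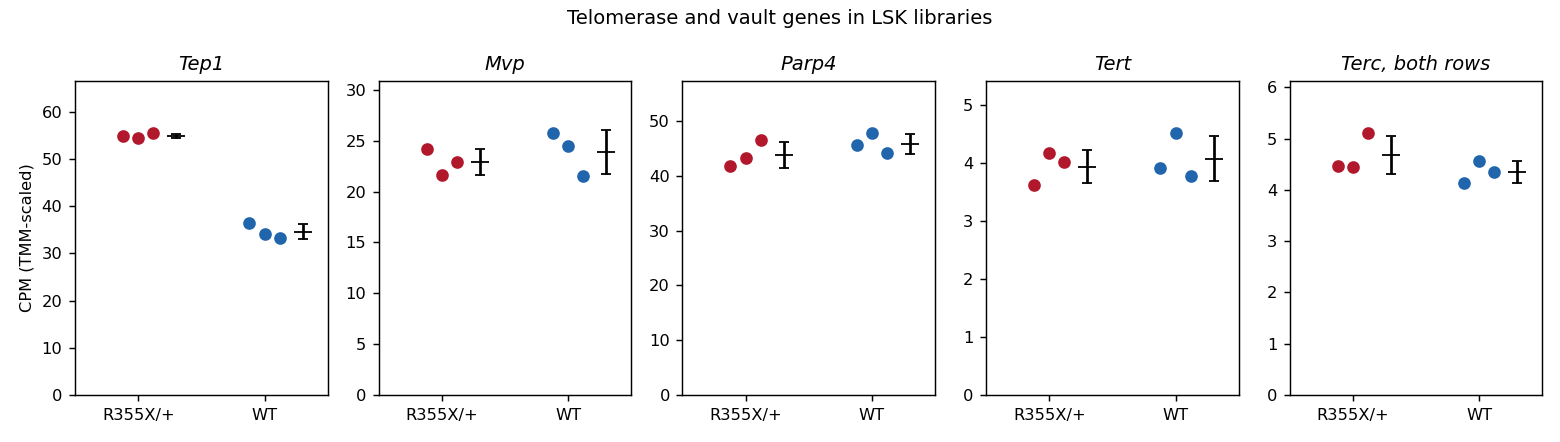
Level of Tep1, Mvp, Parp4, Tert and the summed Terc rows in each library, in CPM on linear axes from 0, with the mutant (R355X/+) left of wild type (WT). Points are libraries and black bars the mean ± SD (n = 3). Tep1 has all 3 mutant values above all 3 wild-type values, and the genotypes overlap in the other panels.

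Tep1 (ENSMUSG00000006281.8) lies on the minus strand of chromosome 14 from 50824059 to 50870560 in GRCm38. Its start overlaps 237 bases of Gm26782, an antisense transcript on the plus strand from 50870324 to 50880603. The counts carry no strand, so reads in that stretch are shared out between both genes. Tep1 was not a whole number in any of the 6 libraries, whereas the sum of Tep1 and Gm26782 was whole in 6 of 6 (tolerance 0.015 counts).

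That sum was 62.0, 61.0 and 63.7 CPM in mutant replicates 1, 2 and 3, against 44.7, 42.7 and 40.1 CPM in wild-type replicates 1, 2 and 3. The genotypes stayed apart, and the log2 fold change of the summed row was 0.55, compared with 0.66 for Tep1 by itself. Most of the sum is Tep1, so it carries the contrast that chose the gene and is a description. Gm26782 measured 7.31 ± 0.846 CPM in the mutant and 7.85 ± 0.936 CPM in wild type (SD, n = 3 each), with a log2 fold change of -0.10 (SE 0.15, adjusted p = 0.863 by edgeR).

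Genes around Tep1 were read in the same fit. Within 250000 bases of Tep1 the annotation holds 35 genes, of which 16 were tested. In edgeR's quasi-likelihood test 0 of the 16 passed and 0 had an unadjusted p under 0.05, with log2 fold changes from -0.23 to 0.70. Over all tested genes 0.266% passed and 10.6% had an unadjusted p under 0.05, so counts of 0 among 16 are near the background and are no result about these neighbours. The nearest tested gene on the lower side is Parp2, a DNA-damage-activated ADP-ribosyltransferase whose span ends 2758 bases from that of Tep1. Parp2 measured 67.1 ± 2.36 CPM in the mutant and 65.6 ± 3.14 CPM in wild type (SD, n = 3 each). On the higher side it is Osgep, a tRNA-modifying enzyme gene 35918 bases away, at 31.7 ± 2.43 CPM in the mutant and 29.1 ± 0.641 CPM in wild type. The log2 fold change was 0.034 (SE 0.064) for Parp2 and 0.12 (SE 0.083) for Osgep. The top of the range was Rnase12, with a log2 fold change of 0.70 (SE 0.35) at 1.77 CPM in the mutant and 1.10 CPM in wild type, named after its values were seen.

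**Figure D2:**
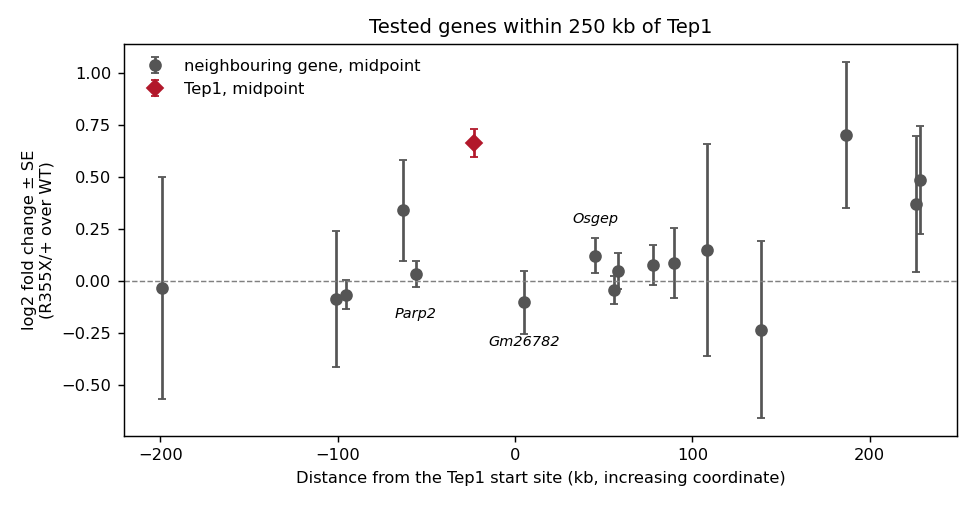
Log2 fold change (mutant over wild type) with its SE from the edgeR fit for Tep1, the red diamond, and the 16 tested genes within 250000 bases, grey circles, at the distance of each gene's midpoint from the Tep1 start site in kilobases. Parp2, Gm26782 and Osgep lie between -0.10 and 0.12, and the highest grey circle is Rnase12 at 0.70 with an SE of 0.35.

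The other vault proteins did not pass the test. Mvp, which forms the vault shell, measured 24.2, 21.7 and 22.9 CPM in mutant replicates 1, 2 and 3, against 25.7, 24.5 and 21.5 CPM in wild-type replicates 1, 2 and 3. The genotypes overlapped, with the highest and the lowest value both in wild type. Mvp averaged 22.9 ± 1.26 CPM in the mutant and 23.9 ± 2.17 CPM in wild type (SD, n = 3 each), and its log2 fold change was -0.062 (SE 0.097, adjusted p = 0.872 in edgeR's quasi-likelihood test). The approximate 95% interval of the change ran from -16.1% to 9.36% (normal approximation to the fit).

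Parp4, the vault ADP-ribosyltransferase, measured 41.8, 43.2 and 46.5 CPM in mutant replicates 1, 2 and 3, against 45.6, 47.7 and 44.1 CPM in wild-type replicates 1, 2 and 3. Mutant replicate 3 lay among the wild-type values and the other mutant libraries just below them. Parp4 averaged 43.8 ± 2.39 CPM in the mutant and 45.8 ± 1.83 CPM in wild type (SD, n = 3 each), with a log2 fold change of -0.065 (SE 0.070, adjusted p = 0.794 in the same edgeR test). Its 95% interval ran from -13.1% to 5.17%. Mvp (ENSMUSG00000030681.18) is on chromosome 7 from 126986860 to 127014621, minus strand, where it overlaps Pagr1b on the same strand. Parp4 (ENSMUSG00000054509.7) is on chromosome 14 from 56575619 to 56659794, plus strand, where it overlaps the antisense gene Gm16573, which averaged 0.511 CPM in the mutant and 0.495 CPM in wild type. The sum of Parp4 and Gm16573 was whole in 6 of 6 libraries, and Parp4 by itself in 0 of 6.

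Ratios of counts within a library need no scaling between libraries. Tep1 had 2.27, 2.52 and 2.43 expected counts per Mvp count in mutant replicates 1, 2 and 3, against 1.42, 1.39 and 1.55 in wild-type replicates 1, 2 and 3. Against Parp4 the ratio of Tep1 was 1.31, 1.26 and 1.19 in the mutant libraries in the same order, and 0.799, 0.716 and 0.756 in the wild-type libraries. Both ratios were higher in each mutant library than in any wild-type library. The ratio of Parp4 to Mvp averaged 1.92 ± 0.165 in the mutant and 1.92 ± 0.140 in wild type (SD, n = 3 each). Ratios that hold Tep1 carry the contrast that chose it and are a description.

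**Figure D3:**
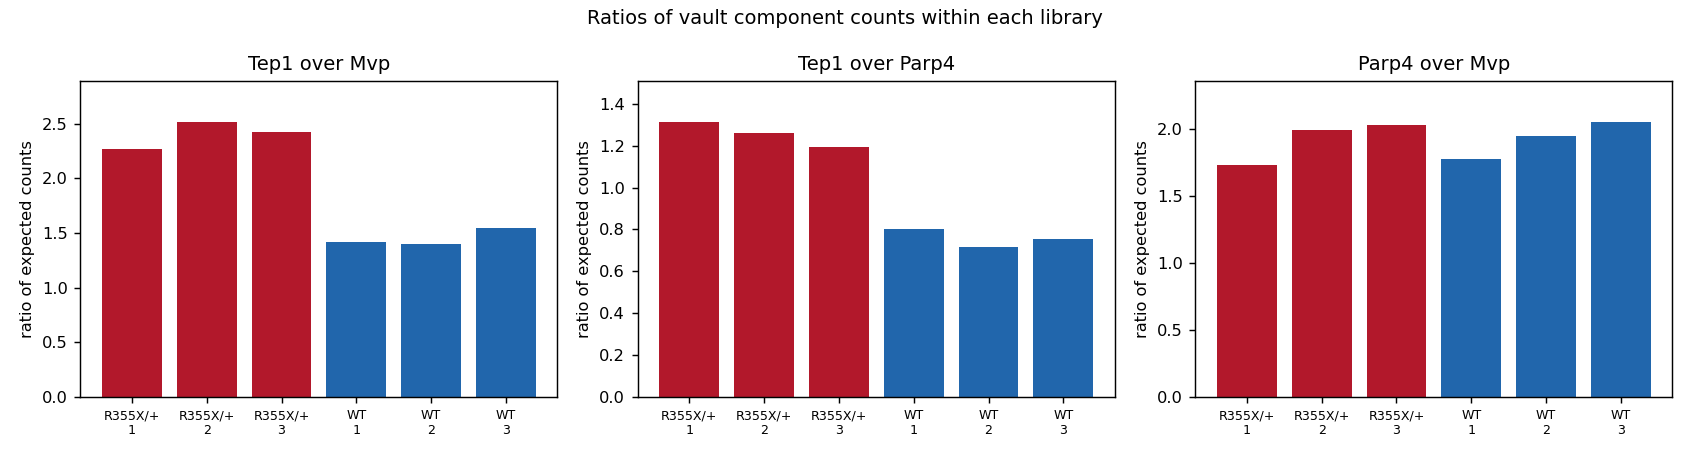
Ratio of expected counts within each library for Tep1 over Mvp, Tep1 over Parp4 and Parp4 over Mvp, on linear axes from 0, with 1 bar per library (mutant red, wild type blue). Both Tep1 ratios are higher in the 3 mutant libraries, and Parp4 over Mvp overlaps between genotypes.

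The vault RNA was barely counted. Vaultrc5 (ENSMUSG00000065145.1), the mouse vault RNA, is transcribed from the plus strand of chromosome 18 between 36801866 and 36802008, a span of 143 bases. It had 2, 0 and 1 expected counts in mutant replicates 1, 2 and 3, against 0, 3 and 0 in wild-type replicates 1, 2 and 3. It did not pass the filter, and no difference was detectable in these counts. How well these libraries keep so short an RNA was not tested, so the counts are not read as its level in the cells. A count of 0 allows up to 3 counts, which is 0.0575 CPM in mutant replicate 2 and 0.0489 and 0.0616 CPM in wild-type replicates 1 and 3, for counting error only.

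Tert, the catalytic subunit of telomerase, did not pass the test either. Tert measured 3.61, 4.16 and 4.01 CPM in mutant replicates 1, 2 and 3, against 3.91, 4.50 and 3.78 CPM in wild-type replicates 1, 2 and 3. The genotypes overlapped, and each held a value above 4 CPM. Tert averaged 3.93 ± 0.283 CPM in the mutant and 4.07 ± 0.387 CPM in wild type (SD, n = 3 each), with a log2 fold change of -0.051 (SE 0.17, adjusted p = 0.952 in edgeR's quasi-likelihood test). With 180 to 316 counts per mutant library and 184 to 240 per wild-type library, the 95% interval ran from -23.1% to 21.2%. The log2 fold change was 0.0083 without mutant replicate 1 and 0.029 without wild-type replicate 2, so it had no settled sign. Tert (ENSMUSG00000021611.9) lies on the plus strand of chromosome 13 from 73626911 to 73649843 and overlaps no annotated gene.

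RefSeq promoter sequences, 250 bases before to 50 after the annotated start in GRCm38.p6, were matched for 3 of the 6 genes, Tert, Parp4 and Mvp. They are shown because proteins of the ETS family, Etv6 among them, bind DNA at a GGAA core. Capitals mark GGAA on either strand (TTCC where it reads on the opposite one).
Tert, chr13:73626661-73626960, plus strand: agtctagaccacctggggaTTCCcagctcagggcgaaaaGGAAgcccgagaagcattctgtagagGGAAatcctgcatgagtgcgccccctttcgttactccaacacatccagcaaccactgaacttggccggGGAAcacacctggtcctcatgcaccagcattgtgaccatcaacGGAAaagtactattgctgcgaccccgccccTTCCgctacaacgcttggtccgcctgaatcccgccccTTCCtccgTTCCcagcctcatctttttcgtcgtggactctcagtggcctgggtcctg
Parp4, chr14:56575369-56575668, plus strand: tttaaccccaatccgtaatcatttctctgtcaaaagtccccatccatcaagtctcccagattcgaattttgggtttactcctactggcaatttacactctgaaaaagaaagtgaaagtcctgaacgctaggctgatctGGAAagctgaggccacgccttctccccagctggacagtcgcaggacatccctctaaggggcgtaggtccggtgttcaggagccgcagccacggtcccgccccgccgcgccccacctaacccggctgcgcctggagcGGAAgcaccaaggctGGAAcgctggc
Mvp, chr7:127014545-127014844, minus strand: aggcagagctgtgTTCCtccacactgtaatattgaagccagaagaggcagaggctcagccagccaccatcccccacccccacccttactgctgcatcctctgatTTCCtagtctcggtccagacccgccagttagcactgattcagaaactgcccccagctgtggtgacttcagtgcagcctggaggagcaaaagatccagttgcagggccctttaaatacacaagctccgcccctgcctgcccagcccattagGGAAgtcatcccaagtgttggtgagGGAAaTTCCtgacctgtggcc

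The 300 bases of Tert held 8 matches to GGAA, those of Mvp 5 and those of Parp4 3. Among all 32851 promoter sequences in the same set, 96.0% held at least 1, the median was 3, and 3.72% held 8 or more. The longer word CGGAAG, which contains the core, occurred once in Tert, once in Parp4 and not in Mvp, and 16.9% of all promoters held it on either strand. In Parp4 it begins 23 bases after the start. CACGTG, the palindromic E-box bound by Myc and Max, was in none of the 3 windows and in 7.15% of all promoters. A match is a string of letters and not a measured binding site. None of the 3 genes with a sequence here passed the test between genotypes.

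Terc, the telomerase RNA, was counted on 2 rows, and the split between them differed between libraries far more than their sum. The row with biotype misc_RNA (ENSMUSG00000064796.1) lies on the minus strand of chromosome 3 from 96414437 to 96414859. The row with biotype lncRNA (ENSMUSG00000118406.1) has no entry in the annotation release used here, so its position is not given. The beginning of the misc_RNA transcript holds the template, and capitals mark its longest run that reads as repeats of CCCTAA, the complement of the telomere repeat.
Terc, bases 1 to 120, chr3:96414740-96414859, minus strand: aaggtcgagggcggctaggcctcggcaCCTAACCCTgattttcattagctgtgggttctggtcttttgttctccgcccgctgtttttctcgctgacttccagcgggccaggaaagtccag
Terc, bases 384 to 423, chr3:96414437-96414476, minus strand: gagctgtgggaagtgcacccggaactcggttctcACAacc

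The run of 9 bases spans positions 28 to 36 of the 423-base transcript. The last bases are shown because telomerase RNA ends like an H/ACA small nucleolar RNA, the class bound by dyskerin. Capitals there mark ACA, which stands 3 bases before the end. RefSeq gives Terc 397 bases in the same assembly, and the GENCODE model begins 26 bases further upstream.

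The misc_RNA row had 147, 74.6 and 85.7 expected counts in mutant replicates 1, 2 and 3, against 131, 99.6 and 10.2 in wild-type replicates 1, 2 and 3. Wild-type replicate 3 stood far below the other libraries on this row. The lncRNA row had 244, 157 and 143 expected counts in mutant replicates 1, 2 and 3, against 122, 123 and 202 in wild-type replicates 1, 2 and 3. On this row wild-type replicate 3 was the highest of its genotype. The misc_RNA row took 37.5%, 32.2% and 37.4% of the sum in the mutant libraries, and 51.8%, 44.7% and 4.80% in the wild-type libraries. The sum was a whole number in 6 of 6 libraries (tolerance 0.015 counts), and the misc_RNA row in 1 of 6.

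Summed, Terc measured 4.47, 4.45 and 5.10 CPM in mutant replicates 1, 2 and 3, against 4.13, 4.57 and 4.35 CPM in wild-type replicates 1, 2 and 3. The genotypes overlapped, and mutant replicate 3 was the highest. The sum averaged 4.67 ± 0.370 CPM in the mutant and 4.35 ± 0.220 CPM in wild type (SD, n = 3 each), and its log2 fold change was 0.10 (adjusted p = 0.866 in edgeR's quasi-likelihood test, a sum chosen after the data were seen). By themselves, the misc_RNA and lncRNA rows had log2 fold changes of 0.19 (SE 0.57, adjusted p = 0.946) and 0.056 (SE 0.26, adjusted p = 0.967) in the edgeR test. Without wild-type replicate 3 they were -0.32 and 0.41. Within wild type the highest library exceeded the lowest 10.2-fold on the misc_RNA row, 2.08-fold on the lncRNA row and 1.11-fold in the sum.

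**Figure D4:**
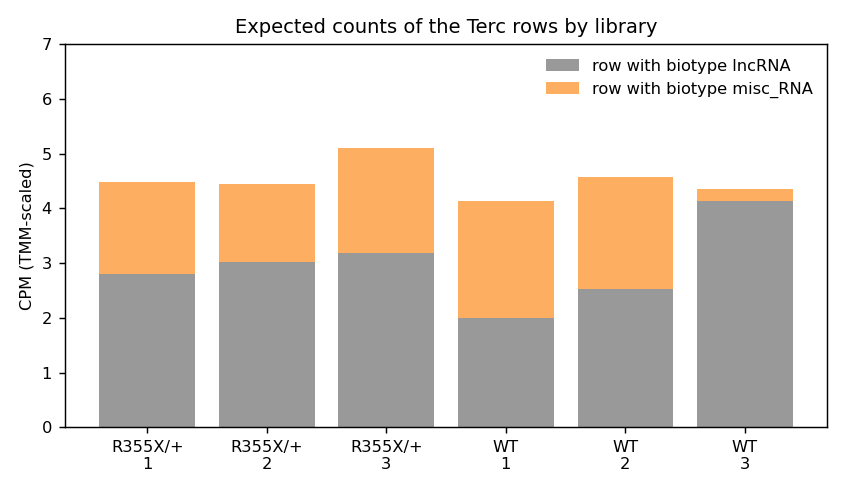
CPM of both rows with the symbol Terc in each library, stacked, with the lncRNA row in grey and the misc_RNA row in orange, and the mutant libraries left of wild type. The stacks reach 4.13 to 5.10 CPM in all 6 libraries, while the misc_RNA part of wild-type replicate 3 is 0.209 CPM.

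Per kilobase of annotated exon, the order of levels was Parp4, Tep1, Mvp and Tert in both genotypes. Parp4 averaged 6.71 ± 0.365 CPM per kilobase in the mutant and 7.01 ± 0.280 in wild type (SD, n = 3 each). Tep1 averaged 5.74 ± 0.0538 CPM per kilobase in the mutant and 3.62 ± 0.168 in wild type. Mvp averaged 3.00 ± 0.165 CPM per kilobase in the mutant and 3.14 ± 0.284 in wild type. Tert averaged 0.686 ± 0.0494 CPM per kilobase in the mutant and 0.709 ± 0.0675 in wild type, the lowest of these 4 by more than the spread.

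The order of Tep1 and its neighbours rests on the length used. With the longest transcript in place of all exons, Tep1 came to 6.72 ± 0.0630 CPM per kilobase in the mutant, within the spread of Parp4 at 6.86 ± 0.374. In wild type Tep1 then came to 4.24 ± 0.196, below Mvp at 4.96 ± 0.450. Terc, taken as the sum of its rows over 0.423 kilobases, came to 11.1 ± 0.875 CPM per kilobase in the mutant and 10.3 ± 0.520 in wild type. Its rank is not read, because the length of the lncRNA row is not known here.

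None of the telomere and vault pathway genes outside the 6 passed the test. The 8 lists hold 90 genes, 86 of them tested, with 0 past edgeR's quasi-likelihood test, 2 higher and 5 lower at an unadjusted p under 0.05, and DESeq2 called 1. Over all tested genes 0.266% passed, 10.6% had an unadjusted p under 0.05, and the median log2 fold change was 0.0019. Of all tested genes 50.6% were above 0. Whether the split above and below 0 in any list differs from that share was not tested. Counts of 0 past the test among the 86 genes, and in each list below, are near the background and are no result about these genes.

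Among 14 telomerase assembly factors 0 passed, and 4 were above 0 and 10 below, with a median log2 fold change of -0.068. Dkc1, the dyskerin pseudouridine synthase that binds telomerase RNA, measured 188 ± 5.70 CPM in the mutant and 205 ± 9.01 CPM in wild type (SD, n = 3 each). Nvl, a AAA ATPase, measured 79.5 ± 2.93 CPM in the mutant and 88.7 ± 2.49 CPM in wild type. Ruvbl1, an ATPase that acts in telomerase assembly, measured 67.5 ± 1.17 CPM in the mutant and 74.0 ± 2.79 CPM in wild type. Wrap53, which brings telomerase to Cajal bodies, measured 6.08 ± 1.02 CPM in the mutant and 4.81 ± 0.440 CPM in wild type. The adjusted p of these 4 in edgeR's test ran from 0.395 for Nvl to 0.535 for Wrap53.

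Of 11 genes that process or degrade telomerase RNA 0 passed, with 5 above and 6 below 0 and a median log2 fold change of -0.0023, which was 0.0038 without wild-type replicate 2. Tgs1, which trimethylates the cap of small RNAs, measured 113 ± 5.38 CPM in the mutant and 123 ± 6.33 CPM in wild type (SD, n = 3 each). Exosc10, a nuclear exosome nuclease, measured 48.6 ± 0.771 CPM in the mutant and 51.7 ± 0.545 CPM in wild type. Tent4b, a noncanonical poly(A) polymerase, measured 46.8 ± 2.26 CPM in the mutant and 50.2 ± 1.68 CPM in wild type. Dis3, an exosome nuclease, measured 54.3 ± 3.89 CPM in the mutant and 58.6 ± 4.28 CPM in wild type. The lowest adjusted p of the list was 0.590 in edgeR's test, for Tgs1.

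Shelterin, the protein complex that coats telomere repeats, had 0 of 7 members past the test, 6 above and 1 below 0 and a median log2 fold change of 0.050. Terf2, which protects the telomere loop, measured 59.7 ± 1.86 CPM in the mutant and 57.3 ± 0.875 CPM in wild type (SD, n = 3 each). Terf1, which binds double-stranded repeats, measured 35.0 ± 2.32 CPM in the mutant and 33.6 ± 0.304 CPM in wild type. Pot1a, which binds the single-stranded overhang, measured 55.5 ± 0.560 CPM in the mutant and 53.5 ± 4.12 CPM in wild type. Terf2ip, the partner of Terf2, measured 25.8 ± 1.28 CPM in the mutant and 24.4 ± 1.46 CPM in wild type. The 7 log2 fold changes lay between -0.0013 and 0.081.

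Of 13 genes of the CST complex and telomere replication 0 passed, 7 above and 6 below 0, with a median log2 fold change of 0.049, which was -0.024 without mutant replicate 1 and -0.026 without wild-type replicate 1. Stn1, a CST subunit, measured 8.11 ± 0.728 CPM in the mutant and 6.58 ± 0.577 CPM in wild type (SD, n = 3 each, adjusted p = 0.494 in edgeR's test). The nuclease genes Dclre1b and Exo1 measured 42.6 ± 0.938 and 47.1 ± 4.24 CPM in the mutant, and 46.7 ± 2.72 and 51.8 ± 1.28 CPM in wild type. Rtel1, a helicase that unwinds telomere loops, measured 36.5 ± 2.59 CPM in the mutant and 33.9 ± 0.938 CPM in wild type.

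Of 12 tested genes of telomere chromatin and damage response 0 passed, 4 above and 8 below 0, with a median log2 fold change of -0.050. The damage kinase genes Atr and Atm measured 104 ± 4.24 and 115 ± 2.49 CPM in the mutant, and 117 ± 1.54 and 123 ± 7.48 CPM in wild type (SD, n = 3 each). Nbn, of the MRN complex, measured 23.0 ± 0.452 CPM in the mutant and 25.7 ± 1.40 CPM in wild type. Hmbox1, a telomere-binding homeobox protein, measured 56.7 ± 1.91 CPM in the mutant and 52.7 ± 4.68 CPM in wild type. The lowest adjusted p of this list in edgeR's test was 0.316, for Atr.

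The PARP family, the paralogs of Parp4, had 0 of 15 members past the test, 12 above and 3 below 0, with a median log2 fold change of 0.034. Tiparp, a mono-ADP-ribosyltransferase induced by the aryl hydrocarbon receptor, measured 30.8 ± 2.49 CPM in the mutant and 25.5 ± 0.732 CPM in wild type (SD, n = 3 each, adjusted p = 0.296 in edgeR's test). The interferon-inducible genes Parp14 and Parp10 measured 100.3 ± 5.93 and 16.5 ± 1.23 CPM in the mutant, and 89.5 ± 6.86 and 19.3 ± 1.39 CPM in wild type. Parp11, a mono-ADP-ribosyltransferase, measured 33.4 ± 1.47 CPM in the mutant and 30.9 ± 1.16 CPM in wild type.

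Tep1 shares its TROVE domain with Ro60, the protein that binds Y RNAs. Ro60 measured 25.0 ± 4.40 CPM in the mutant and 24.7 ± 4.04 CPM in wild type (SD, n = 3 each). Of the 4 tested genes for Ro and La proteins 0 passed, 2 above and 2 below 0, with a median log2 fold change of 0.0055, which was below 0 whichever single library was left out. Ssb, the La protein, measured 151 ± 5.15 CPM in the mutant and 151 ± 5.47 CPM in wild type. The La-related genes Larp4 and Larp7 measured 191 ± 8.23 and 76.1 ± 5.89 CPM in the mutant, and 205 ± 6.09 and 75.2 ± 3.13 CPM in wild type. The Y RNA genes Rny1 and Rny3 were at 0 in all 6 libraries, which is not read as their level in the cells.

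Of 10 tested regulators of Tert transcription 0 passed, 4 above and 6 below 0, with a median log2 fold change of -0.047. Myc, an activator of Tert, measured 231 ± 11.0 CPM in the mutant and 301 ± 44.6 CPM in wild type (SD, n = 3 each, log2 fold change -0.38, SE 0.094, adjusted p = 0.181 in edgeR's test). DESeq2 called Myc (adjusted p = 0.00984). Without wild-type replicate 2, the highest library at 352 CPM, the log2 fold change of Myc in the edgeR fit was -0.25. Its partner Max measured 114 ± 14.2 CPM in the mutant and 103 ± 4.43 CPM in wild type. Gabpb1, a subunit of the ETS-containing GABP complex, measured 90.2 ± 3.17 CPM in the mutant and 101 ± 8.60 CPM in wild type. Sp1, a GC-box-binding factor, measured 201 ± 8.65 CPM in the mutant and 213 ± 5.98 CPM in wild type.

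**Figure D5:**
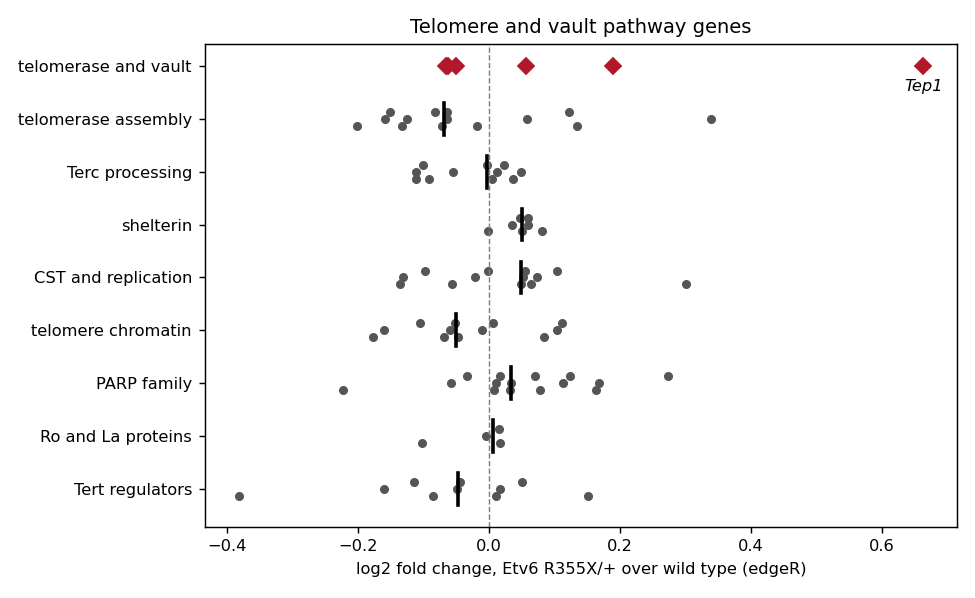
Log2 fold change (mutant over wild type, edgeR) of the 6 tested telomerase and vault rows, red diamonds, and of each tested gene of the 8 lists, grey circles, with the list median as a black bar. Every list median lies between -0.068 and 0.050, and Tep1 is at 0.66.

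Among the genes whose log2 CPM was most like that of Tep1 over the 6 libraries were Bbs9, Fcer1a, Dtnbp1 and Tmem254b, with Pearson correlations from 0.989 to 0.992. With 3 libraries per genotype, any gene with a clear step between genotypes scores high, and the genes share libraries and depth. Of 12021 genes compared, 71 had a correlation over 0.95. Dtnbp1, a subunit of the organelle-biogenesis complex BLOC-1, measured 44.0 ± 0.433 CPM in the mutant and 32.2 ± 0.231 CPM in wild type (SD, n = 3 each). Bbs9, a BBSome subunit, measured 25.9 ± 0.135 CPM in the mutant and 23.4 ± 0.445 CPM in wild type. The log2 fold change of Bbs9 was 0.15 (SE 0.080). These genes were picked for their likeness to Tep1, so the closeness of their values within a genotype is not read. Fcer1a, the alpha chain of the IgE receptor, measured 2.49 ± 0.380 CPM in the mutant and 0.499 ± 0.0776 CPM in wild type. Tmem254b, which has close copies that could share its reads, measured 23.2 ± 1.45 CPM in the mutant and 14.8 ± 1.02 CPM in wild type. The correlation with Tep1 was -0.23 for Mvp, -0.48 for Parp4 and -0.24 for Tert. For Terc it was 0.40 on the misc_RNA row and 0.089 on the lncRNA row.

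Of the marker lists of other blood cells, the summed levels of the B cell and the mast cell and basophil lists did not overlap between genotypes, and those of the other 4 lists did. Of all these markers 4 passed the test. Over all tested genes, taken singly, 0.266% passed, 10.6% had an unadjusted p under 0.05 and 16.3% did not overlap between genotypes. Their share with a log2 fold change above 0 was 50.6%. No such share was computed for sums of markers. All 8 B cell markers had log2 fold changes above 0 (0 past edgeR's test over all genes, 7 at an unadjusted p under 0.05). Their summed level was 327, 206 and 147 CPM in mutant replicates 1, 2 and 3, and 105 to 138 CPM in wild type. At the same unadjusted threshold 6 macrophage and dendritic cell, 5 mast cell and basophil and 2 erythroid markers were higher. Of the T and NK cell markers 1 was higher and 1 lower at that threshold, and 1 neutrophil marker was lower. Macrophage and dendritic cell markers were above 0 in 6 of 8, at a sum of 94.6 to 137 CPM in the mutant and 86.6 to 101 CPM in wild type. Mast cell and basophil markers were above 0 in 6 of 7 tested, with Fcer1a past the test and Cma1, not tested, at 0 in wild-type replicate 1, at a sum of 59.0 to 80.7 CPM in the mutant and 48.4 to 55.4 CPM in wild type. Of the 8 T and NK cell markers 5 were above 0 and 1, Klrb1c, passed. Below 0 were 3, Cd4 among them. Cd4 measured 2.40 ± 0.356 CPM in the mutant and 5.38 ± 2.00 CPM in wild type (SD, n = 3 each). The T and NK list summed to 114 to 149 CPM in the mutant and 103 to 130 CPM in wild type. Of the 8 erythroid markers 5 were above 0 and 2, the similar beta-globin genes Hbb-bt and Hbb-bs, passed, at a sum of 199 to 314 CPM in the mutant and 155 to 222 CPM in wild type. Neutrophil markers were above 0 in 2 of 8, at a sum of 4204 to 5905 CPM in the mutant and 5441 to 8115 CPM in wild type. Whether RNA of these cells contributes to the Tep1 difference was not tested.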

How the data were processed

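Per the labels' protocols, cDNA of sorted LSK cells was made by single-primer isothermal amplification from total RNA, then sheared for sequencing libraries. The authors deposited expected counts per gene, in which ambiguous reads are divided among genes, with no scaling for depth. Tools named in the submitters' processing notes are RSEM 1.31, STAR 2.7 and Trim Galore 0.60, with build mm10. The annotation release is not given in the sources used here. The 92 spike-in rows, at 0 in every library, were left out.

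Counts were rounded, filtered with filterByExpr, scaled by TMM and tested between genotypes with edgeR 4.0.16 under R 4.3.3 (quasi-likelihood, two-sided) with Benjamini-Hochberg adjustment over all 20646 genes and a threshold of 0.05. Samples were grouped by title, 3 per genotype. Printed CPM use unrounded counts. SE is the log2 fold change over the root of its F statistic. Correlations used log2 CPM with edgeR's prior count. Positions and lengths come from GENCODE M21 (GRCm38), which matched 55480 of 55573 genes, and promoters from RefSeq. The edgeR fit was tested on simulated data, from which nothing is read about the genes that did not pass. Intervals and floors cover counting or fit error only. No pair of libraries within a genotype agreed to within counting noise (chi-square per gene 11.2 to 46.5). The pairs with mutant replicate 1, the library with the highest total, had 46.3 and 46.5, and the other pairs 11.2 to 21.3.

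The members and gene lists were chosen with earlier results of these data known. Named are the 6 members, every list gene past the threshold and up to 4 further genes of each of the 8 lists by smallest p. Also named are the overlapping and nearest tested neighbours of Tep1 and the 5 genes most correlated with it among those of at least 1 CPM, passing over Gm, Rik and pseudogene symbols. Of those 5 genes, 1 is not reported here. Alternatives were DESeq2 1.42.0, limma-voom (limma 3.58.1), other scalings and filters, unrounded counts, a replicate block, leaving out mitochondrial and ribosomal RNA genes or each library, another length, and, chosen after seeing the data, summing rows that share reads.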

Additional observations from a re-analysis of the deposited data

How the results depend on the processing

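Tep1 kept a log2 fold change of 0.63 to 0.70 under every alternative that left its row as deposited, and 0.55 when summed with Gm26782, chosen after seeing the data. None of the 5 other tested rows passed the threshold under any alternative, with a lowest adjusted p of 0.572. The count of 55 genes called was 329 with DESeq2, 527 with no filter on low counts, and 32 with the replicate block, where Tep1 had 0.66. It ran from 16 to 67 with single libraries left out, at 26 and 18 without mutant replicates 1 and 2, and 23 and 16 without wild-type replicates 1 and 2. Genes called in the pathway lists went to 1, Myc, with DESeq2 and with no filter, and were 0 with each single library left out. Deviations of same-numbered libraries from their genotype means had correlations of -0.020, -0.025 and -0.085. With 3 libraries per genotype these cannot show whether same-numbered libraries share more than a number. Signs turned as follows, with no gene past the threshold. With limma-voom Ro60 was -0.029 and Ssb 0.00041, and with library size alone Larp7 was -0.020, Ro60 -0.017 and Parp2 -0.0029. With single libraries left out, Tert ran from -0.10 to 0.029, the Terc misc_RNA row from -0.32 to 0.57 and the lncRNA row from -0.15 to 0.41. In the same way Larp7 ran from -0.048 to 0.059, Ro60 from -0.11 to 0.15, Ssb from -0.032 to 0.026 and Parp2 from -0.0010 to 0.068. List medians turned too. That of the Ro and La list was -0.015 with limma-voom, -0.030 with library size alone and -0.044 to -0.00023 with single libraries left out, and that of the PARP family -0.0029 with library size alone. With single libraries left out, the median of the CST and replication list ran from -0.026 to 0.067 and that of the RNA processing list from -0.061 to 0.0038, and Myc from -0.45 to -0.25. The cause of these turns was not tested. Library size alone moved the median of all genes to -0.034. The Terc misc_RNA row was 0.69 with limma-voom and 0.50 with the replicate block. Low counts limit Vaultrc5, Terc and Tert, and for the single Terc rows so does the split of counts between them.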
